A study of Xenopus tropicalis with 4 samples.

Results

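The genes described here encode heavy and intermediate chains of the axonemal dyneins. They are the identifiers whose symbol starts with dnah or dnai followed by a number in the study's supplementary gene lists for its neurula-stage and PHF8 comparisons. There were 9 such genes among the 34178 gene identifiers counted, 8 heavy chains (dnah1, dnah3, dnah5, dnah6, dnah7, dnah9, dnah10 and dnah14) and 1 intermediate chain (dnai2). The parts of the lists at hand are ordered by p, and 8 of the 9 genes stand in the part for these same libraries. Their low p in the authors' test thus helped to bring them in, and dnah1 was named only through lists of other libraries. A RefSeq gene table (assembly UCB_Xtro_10.0) holds 13 symbols of this form. Of these, dnah2, dnah11, dnah12 and dnai1 could not be linked to a counted identifier and were not analysed. The 9 genes are thus not the whole family, and genes with a weaker change may be missing.

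The libraries came from X. tropicalis animal caps (ACs), explants of the blastula's prospective ectoderm that form a mucociliary epidermis in culture, harvested at NF16, a neurula stage. Embryos had been injected with a control morpholino (CoMo) or with morpholinos that block the translation of both suv4-20h1 and suv4-20h2 (H1H2Mo), the methyltransferases that turn the monomethyl mark on lysine 20 of histone H4 into the di- and trimethyl marks. There were 2 libraries per condition, each from a pool of explants, with 17054150 to 47407319 reverse-strand read pairs on genes, and CoMo replicate 2 was the deepest. The series calls them biological replicates but does not say whether they stem from separate clutches, so the p-values measure the spread between these pools. The paper describes more biological replicates for its RNA-seq than the 2 per condition used here. The comparison asks which transcripts change when the SUV4-20H enzymes are depleted.

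A motile cilium beats because dynein arms on one microtubule doublet of the axoneme walk along the next. Each arm is built around heavy chains, very large ATPases that carry the motor. Some arms, such as the outer arms, also have intermediate chains, WD-repeat proteins that hold an arm together and fix it to the doublet. Outer arms mainly set the beat frequency and inner arms the bending pattern. In the frog epidermis these proteins serve the cilia tufts of the multiciliated cells (MCCs), one of several cell types in the tissue. Bulk libraries do not tell fewer MCCs from less dynein mRNA per MCC.

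All 9 genes were lower in H1H2Mo than in CoMo. Their fall ranged from 2.33-fold for dnah1 to 8.47-fold for dnah6, with a median log2 fold change of -2.35 against 0.05 for the 19372 genes tested. Each of the 9 passed the quasi-likelihood test of edgeR at an adjusted p of 0.05 (Benjamini-Hochberg, over all genes tested), while 10.7% of all genes tested were called lower, 5.83% higher and 16.5% in either direction. Among the 6233 tested genes with a symbol, which were mostly listed for a low p, 26.6% were called lower. Among the 2360 genes with CoMo levels in the same range as these 9 genes, 21.7% were called lower. For each of the 9 genes both H1H2Mo libraries lay below both CoMo libraries, as they did for 30.7% of all genes tested. Levels are given as CPM (read pairs scaled to library size) after TMM normalization, and they are compared within a gene only, since transcript lengths were not used here.

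**Figure D1:**
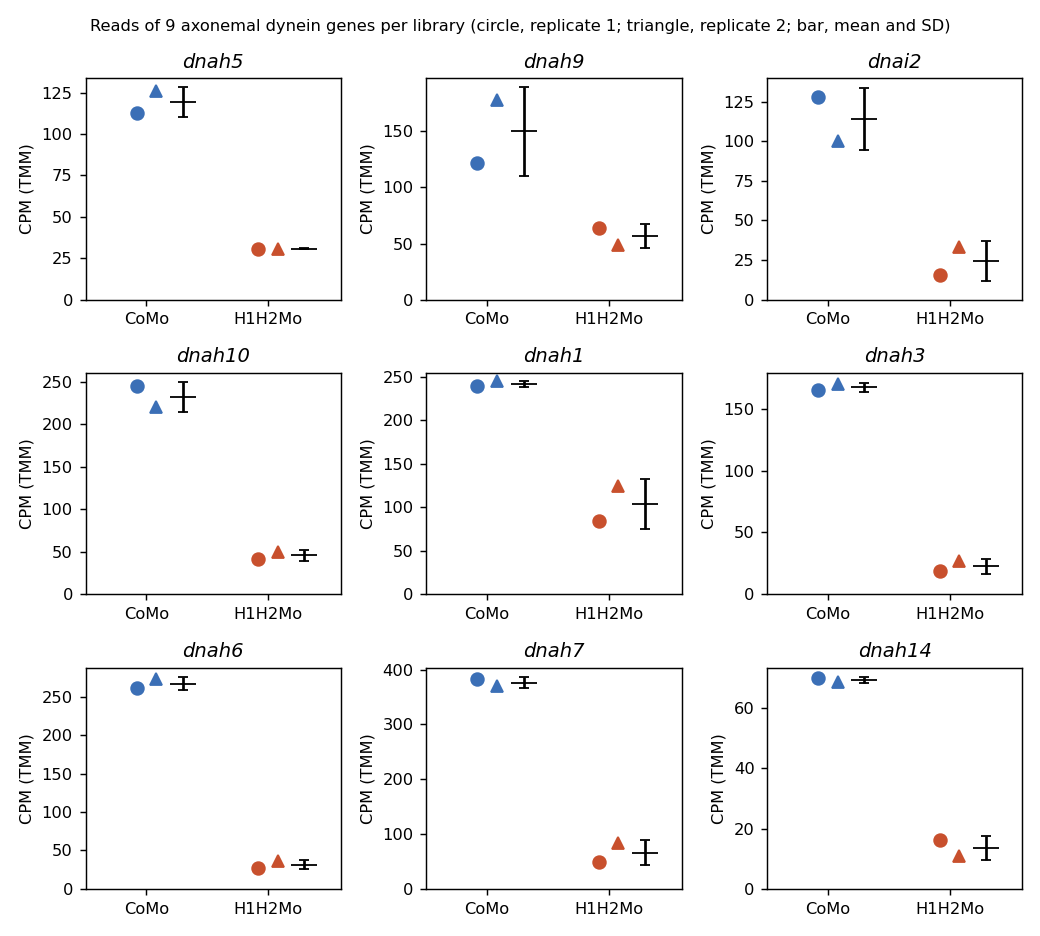
CPM after TMM normalization (vertical axes, linear from 0) of the 9 dynein genes in the CoMo and H1H2Mo libraries. Points are single libraries and the bars beside them are the mean and SD of 2 libraries, and in each panel both H1H2Mo points lie below both CoMo points.

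The outer arm was represented by dnah5, dnah9 and dnai2. dnah5 (gene21712, chromosome 6 of the X. tropicalis v9.1 assembly, as are all chromosomes given here) is the outer arm heavy chain whose human counterpart is a frequent cause of primary ciliary dyskinesia. It had 113.0 and 125.9 CPM under CoMo, and 30.5 and 30.8 CPM under H1H2Mo. The H1H2Mo libraries thus gave nearly the same level, the smallest relative difference between replicates among the 9 genes in that condition. It fell by 1.96 on the log2 scale (SE 0.32, edgeR adjusted p = 0.00131), a change from 119.5 ± 9.18 to 30.7 ± 0.211 CPM (SD, n = 2). Without CoMo replicate 2 its adjusted p was 0.0501 (same test).

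dnah9 (gene19178, chromosome 10) is the other type of outer arm heavy chain and stands beside dnah5 in the distal part of human airway cilia. It had 122.2 and 178.4 CPM under CoMo, and 64.2 and 48.8 CPM under H1H2Mo. The CoMo libraries differed more for dnah9 than for any other of the genes, with a log2 difference of 0.55 between replicates 2 and 1. In the edgeR fit, dnah9 dropped by 1.41 in log2 units (SE 0.35, adjusted p = 0.0143). The lowest CoMo library was 1.90 times the highest H1H2Mo library, the narrowest gap among the 9 genes. The call was lost when either CoMo library was left out, with an adjusted p of 0.0990 without replicate 1 and 0.204 without replicate 2 (edgeR, where the single CoMo library is assumed to vary like the H1H2Mo libraries).

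dnai2 (gene33193, chromosome 10) encodes an outer arm intermediate chain, whose loss in humans also leads to primary ciliary dyskinesia. It had 127.8 and 100.2 CPM under CoMo, and 15.7 and 33.2 CPM under H1H2Mo. H1H2Mo replicate 2 was above replicate 1 by 1.08 on the log2 scale, the largest replicate difference of the 9 genes. Its level decreased by 2.22 on the log2 scale (SE 0.40, edgeR adjusted p = 0.00229), and the log2 difference was -3.02 between the replicates 1 and -1.59 between the replicates 2. Without CoMo replicate 1 it was -2.02 with an adjusted p of 0.0733 (same test).

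dnah10 (gene18526, chromosome 1) is a heavy chain of the double-headed inner arm, known as I1 or f in Chlamydomonas. It had 244.9 and 220.1 CPM under CoMo, and 41.5 and 50.03 CPM under H1H2Mo. Both differences between replicates were small beside the fall, 0.15 and 0.27 on the log2 scale. It fell by 2.35 on the log2 scale (SE 0.34, edgeR adjusted p = 0.000566).

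The single-headed inner arms were represented by dnah1, dnah3, dnah6 and dnah7. dnah6 (gene21485, chromosome 1) had 261.2 and 272.8 CPM under CoMo, and 27.2 and 35.9 CPM under H1H2Mo. It kept 11.8% of its CoMo level, the lowest share of the 9 genes. In the edgeR fit, dnah6 dropped by 3.08 in log2 units (SE 0.35, adjusted p = 0.000142), and 3.74% of the genes tested had a lower log2 fold change. Read pairs on the gene went from 4287 and 11982 to 755 and 643, so that sampling of reads adds little to the error.

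dnah3 (gene17412, chromosome 9) had 165.0 and 170.1 CPM under CoMo, and 18.4 and 26.6 CPM under H1H2Mo. It came next to dnah6 in the size of the fall and kept 13.4% of its CoMo level. Its level decreased by 2.90 on the log2 scale (SE 0.35, edgeR adjusted p = 0.000211). The estimates for dnah6 and dnah3 differ by less than either standard error.

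dnah7 (gene20140, chromosome 9) had 383.2 and 369.3 CPM under CoMo, and 49.8 and 82.9 CPM under H1H2Mo. The CoMo libraries were close to each other, while H1H2Mo replicate 2 was 0.73 above replicate 1 on the log2 scale. It fell by 2.50 on the log2 scale (SE 0.38, edgeR adjusted p = 0.00073). In CoMo replicate 1 the reverse-strand count (6289) exceeded the count made without regard to strand (6231), which leaves out reads that fall on genes of both strands. With unstranded counts dnah7 was still called.

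dnah1 (gene17315, chromosome 4), needed for the flagellum of human sperm, had 239.6 and 244.8 CPM under CoMo, and 83.7 and 124.0 CPM under H1H2Mo. It kept 42.9% of its CoMo level, more than any other of the 9 genes. In the edgeR fit, dnah1 dropped by 1.22 in log2 units (SE 0.34, adjusted p = 0.0286). It was the gene with the highest p of the 9, and also the one that was not brought in by its p in these libraries. Its call was lost without CoMo replicate 1 (adjusted p = 0.246) and without CoMo replicate 2 (adjusted p = 0.197, same edgeR test). Its 95% interval, from -1.97 to -0.48, did not overlap that of dnah6, from -3.85 to -2.32. These are the genes at the ends of the 9 estimates, so a wide separation follows in part from that choice. The difference between them was not tested.

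dnah14 (gene18597, chromosome 5) is a further axonemal heavy chain. It had 70.1 and 68.8 CPM under CoMo, and 16.4 and 10.9 CPM under H1H2Mo. In CPM, unlike most of the other genes, it was lower in H1H2Mo replicate 2 than in replicate 1, as was dnah9. dnah14 had 454 read pairs in H1H2Mo replicate 1, the deeper of these libraries, and 195 in replicate 2. Its level decreased by 2.35 on the log2 scale (SE 0.35, edgeR adjusted p = 0.000698).

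**Figure D2:**
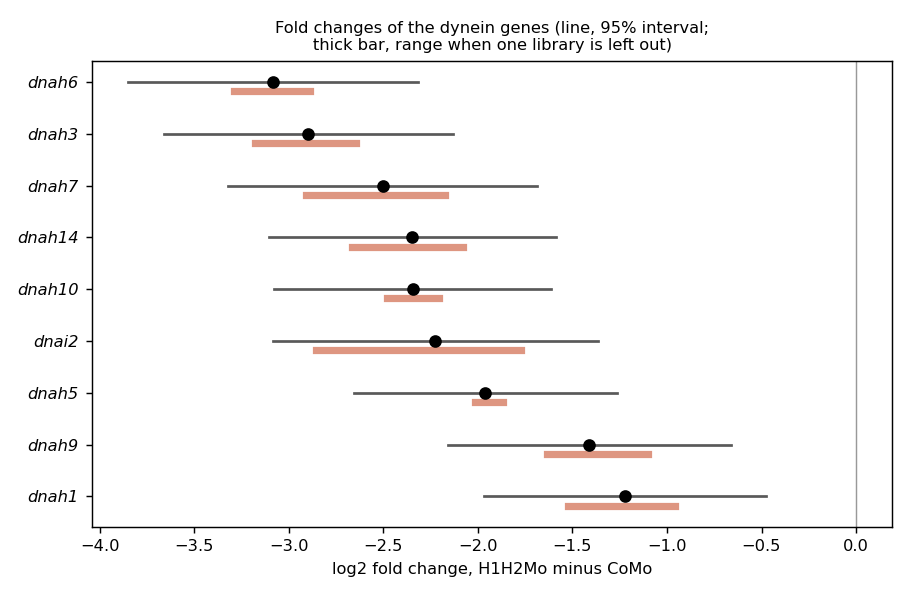
Log2 fold change of each dynein gene (horizontal axis, H1H2Mo minus CoMo; points), with its 95% interval (thin lines) and the range of estimates when each of the 4 libraries was left out in turn (thick bars). The estimates run from -3.08 for dnah6 to -1.22 for dnah1, and all ranges lie below 0.

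In the order of the fold changes (dnah6, dnah3, dnah7, dnah14, dnah10, dnai2, dnah5, dnah9, dnah1), no pair of neighbours differed by more than the sum of their standard errors. The outer arm genes and the inner arm genes were not separated in this order, since dnah1, of the inner arms, came last. The other inner arm heavy chains, and dnah14, which is not assigned to an arm here, had larger falls than the outer arm genes. For dnah10 and dnah14 the difference from dnai2 was smaller than their standard errors. A difference between the arms was not tested. dnah5, dnah9 and dnai2 had log2 fold changes between -2.22 and -1.41, within the span from -3.08 to -1.22 of the 6 other heavy chains. When single libraries were left out, dnah6 stayed between -3.29 and -2.89 and dnah1 between -1.53 and -0.96, the genes at both ends.

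Since a ratio between genes of the same library does not depend on the scaling between libraries, the read pairs of the 9 genes were also set against each other. The 9 genes together took 1662 and 1622 CPM under CoMo and 371.8 and 463.9 CPM under H1H2Mo, here relative to all reverse-strand read pairs on genes. Within this sum, dnah6 made up 15.1% and 15.6% in CoMo and 7.83% and 8.09% in H1H2Mo. The share of dnah1 went the other way, from 13.9% and 13.98% to 24.1% and 28.0%. dnah9 held 7.07% and 10.2% in CoMo and 18.5% and 11.01% in H1H2Mo, so that CoMo replicate 2 and H1H2Mo replicate 2 came close to each other. dnah5 held 6.54% and 7.19% in CoMo and 8.79% and 6.96% in H1H2Mo, and these shares overlapped. Relative to the geometric mean of the 9 genes, dnah5 did not overlap, with log2 values of -0.59 and -0.46 in CoMo and -0.10 and -0.38 in H1H2Mo. How often other genes separate on this scale was not computed, so nothing is read from this.

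**Figure D3:**
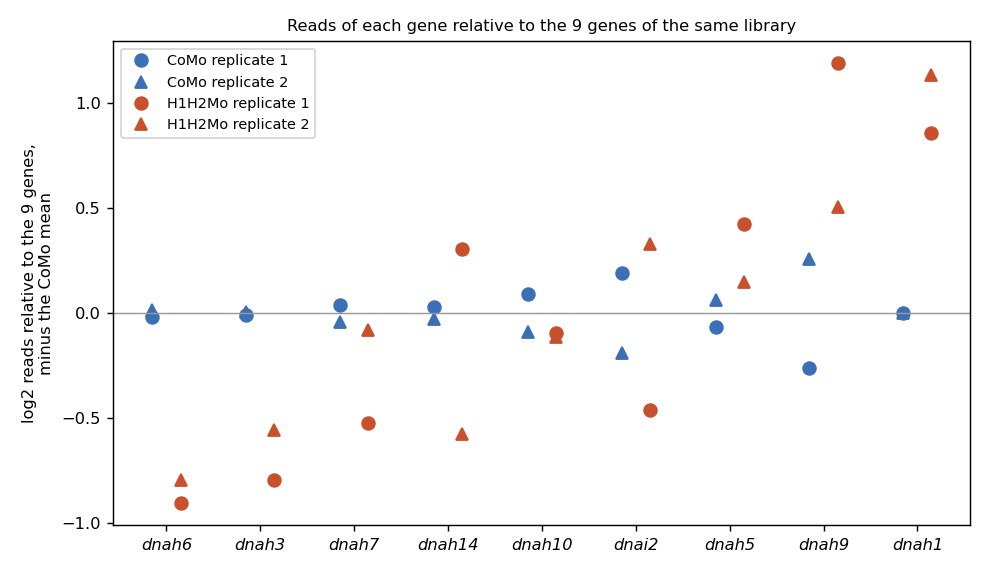
Read pairs of each dynein gene relative to the geometric mean of the 9 genes in the same library, on the log2 scale and with the mean of the CoMo libraries set to 0 (vertical axis; genes are ordered by the change). In both H1H2Mo libraries dnah6, dnah3, dnah7 and dnah10 lie below the CoMo points, and dnah1, dnah9 and dnah5 lie above them. The share of other genes separated in this way was not computed, so nothing is read from how many are separated. For dnah10, dnah7 and dnah5 the gap is small, while dnah14 and dnai2 have an H1H2Mo point on each side.

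The ratio of dnah1 to dnah3 is given as the most even within conditions of the 36 ratios, so its small differences between replicates follow from that choice. Its log2 value was 0.54 and 0.52 in the CoMo libraries and 2.19 and 2.22 in the H1H2Mo libraries. The means of the conditions differed by 1.67, a 3.19-fold shift between these inner arm heavy chains. At the other end, the ratio of dnah14 to dnai2 differed by 1.67 between the H1H2Mo replicates alone. The ratio of dnah6 to dnah1 shifted most of all pairs. Its log2 value was 0.12 and 0.16 in CoMo and -1.62 and -1.79 in H1H2Mo, a 3.60-fold shift. The ratio of the outer arm heavy chains dnah5 and dnah9 had log2 values of -0.11 and -0.50 in CoMo and of -1.07 and -0.66 in H1H2Mo, a mean change of -0.56 beside differences of 0.39 and 0.41 between replicates. The ratio of dnah10 to dnah14 changed least, by 0.03, though it differed by 0.86 between the H1H2Mo libraries. Of the 36 pairs, 26 had ratios that did not overlap between the conditions. In pairs of all genes with CoMo levels in the same range, 70.3% did not overlap, so the number of shifted pairs is near that background and nothing is read from it. With 2 libraries per condition no exact test of a single ratio can reach p under 0.05, and the ratios were not tested.

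Most of the other genes listed here for the dynein arms were lower as well. Their symbols, too, come from lists ordered by p, so the counts below are partly fixed by the naming. They stand beside 10.7% of all genes tested and 26.6% of those with a symbol that were called lower. Of 10 light, light intermediate and further intermediate chains, 9 were called lower and none higher, with a median log2 fold change of -1.91. Of these, dnal4, a light chain, had 200.3 and 173.1 CPM under CoMo, and 39.4 and 61.0 CPM under H1H2Mo. wdr78, an inner arm intermediate chain, had a log2 fold change of -2.39 (edgeR adjusted p = 0.00127), close to the value of dnai2. The exception was tctex1d4, named after its values were seen, with at most 0.648 CPM in any library and no call. Also named with their values known, dynlrb2, dynlt1 and tctex1d2 were called lower. They were counted here, not with cytoplasmic dynein, and the counts of both groups depend on that choice. No call remained in this group without CoMo replicate 1, and 4 remained without CoMo replicate 2.

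The docking complex and the structures that space and tie the arms gave 9 of 9 identifiers lower, with a median of -1.98. Of all tested genes with a symbol, 26.6% were called lower. armc4, part of the outer arm docking complex, had 327.8 and 264.5 CPM under CoMo, and 45.9 and 63.3 CPM under H1H2Mo. Its log2 fold change was -2.44 (edgeR adjusted p = 0.000608). ccdc151, of the same complex, had -2.19 (adjusted p = 0.00135, same test). ccdc40 is counted under 2 identifiers, on chromosome 10 and on an unplaced scaffold, and both were called. Without CoMo replicate 1, 3 of the 9 were called.

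The factors that fold the arms in the cytoplasm or bring them to the cilium gave 11 of 12 genes lower, with a median of -1.52. The share called lower was 26.6% for all tested genes with a symbol. dnaaf1, an assembly factor that human ciliary dyskinesia made known, had 220.8 and 174.5 CPM under CoMo, and 23.0 and 60.0 CPM under H1H2Mo. Its log2 fold change was -2.25 (edgeR adjusted p = 0.00392). zmynd10, a further assembly factor, had -1.54 (adjusted p = 0.0105, same test). The gene not called was ruvbl1, an ATPase that also serves other complexes. It had 499.5 and 467.2 CPM under CoMo and 122.9 and 277.0 CPM under H1H2Mo. Its log2 fold change was -1.27, and its adjusted p of 0.0531 (same test) was just above the threshold. ruvbl2, with the highest mean CPM of this group, had -1.37 and was called lower (adjusted p = 0.0392, same test). Without CoMo replicate 1 none of the 12 was called, and 2 were called without CoMo replicate 2.

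Of 9 genes listed for cytoplasmic dynein and the dynein of intraflagellar transport, 7 could be looked up and tested. The genes left out were dync1h1 and dync1li1. Of the 7 genes tested, 3 were called lower and 1 higher, with a median of -1.15. In comparison, 26.6% of all tested genes with a symbol were called lower. dync2h1, the heavy chain that carries cargo back from the ciliary tip, had 196.2 and 233.0 CPM under CoMo, and 92.9 and 88.6 CPM under H1H2Mo, or -1.24 as a log2 difference (edgeR adjusted p = 0.0205). dync2li1, also of the intraflagellar dynein, was called lower as well (log2 fold change -2.05, adjusted p = 0.00658, same test). dync1i2, a cytoplasmic intermediate chain, rose from 43.9 and 61.5 to 99.1 and 124.1 CPM, or 1.08 as a log2 difference (adjusted p = 0.0431, same test). No other gene of the group had a positive log2 fold change. dync1i1, the other cytoplasmic intermediate chain measured, did not pass, with 67.2 and 66.6 CPM under CoMo, and 38.7 and 43.3 CPM under H1H2Mo (log2 fold change -0.71, adjusted p = 0.148, same test). Without CoMo replicate 1 or CoMo replicate 2 no gene of this group was called lower.

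**Figure D4:**
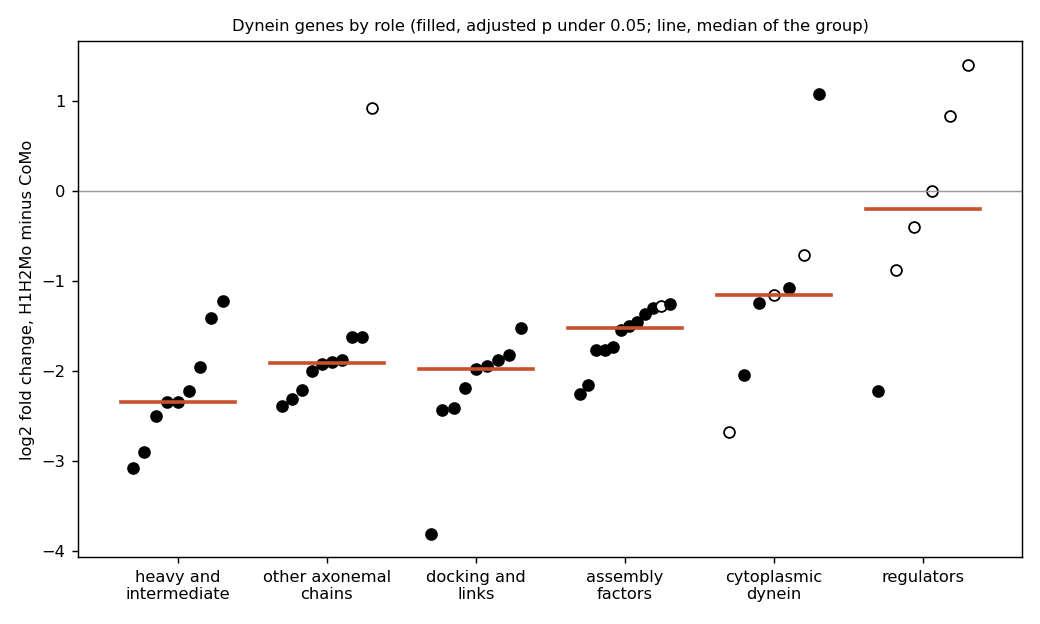
Log2 fold change (vertical axis, H1H2Mo minus CoMo) of the 9 heavy and intermediate chains and of the other dynein-related genes and MCC regulators. Each point is a gene, filled where the adjusted p was under 0.05, and the lines are the group medians, from -2.35 for the heavy and intermediate chains to -0.20 for the regulators.

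MCC regulators were set beside the dynein genes within each library. Of 6 such genes, 1 was called lower and none higher, with a median log2 fold change of -0.20. This count is near the background of 10.7% of all genes tested and 26.6% of those with a symbol called lower, so nothing is read from it. The regulators ran in both directions. mci-like had the highest log2 fold change, 1.40 (edgeR adjusted p = 0.0567), with 58.7 and 84.1 CPM under CoMo, and 93.5 and 285.1 CPM under H1H2Mo. cdc20b had 0.83 (adjusted p = 0.156), foxn4 had 0.00 (0.999) and rfx2 had -0.40 (0.523, same test). foxj1, the transcription factor of motile cilia, and tp73 were chosen here with their values known. foxj1 had a log2 fold change of -0.88 (edgeR adjusted p = 0.136). For each read pair of foxj1, the 9 dynein genes together had 17.8 and 13.99 read pairs in CoMo and 8.56 and 5.51 in H1H2Mo. The mean was 2.26-fold lower in H1H2Mo, and the values of the conditions did not overlap. In pairs of single genes with CoMo levels in the range of the dynein genes, 70.3% did not overlap either, so nothing is read from this. Each ratio to a regulator carries the fall of the summed dynein genes given above. Against rfx2, a partner of foxj1, the dynein genes had 5.15 and 4.25 read pairs in CoMo and 1.70 and 1.23 in H1H2Mo, 3.21-fold lower. Against cdc20b, a gene of centriole amplification, the values were 17.6 and 11.5 in CoMo and 2.07 and 1.596 in H1H2Mo, 7.96-fold lower. The widest of the 6 shifts was against mci-like, from 29.4 and 20.8 to 3.71 and 1.55, 9.53-fold lower, and against foxn4 it was 4.10-fold lower. tp73 was the regulator called lower (log2 fold change -2.23; not without CoMo replicate 2), and against it the values overlapped, with 17.5 and 17.8 in CoMo and 24.2 and 15.9 in H1H2Mo.

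The genes whose pattern was most like the median of the 9 genes were searched among 5355 genes with a symbol and a mean of at least 50 counts. Likeness was the distance between log2 CPM profiles over the 4 libraries, each centred on its mean. The nearest were notch2 (distance 0.065), fbxo31 (0.104), morn1 (0.107), cep89 (0.137) and cfap61 (0.140). notch2 had 124.1 and 114.2 CPM under CoMo, and 21.4 and 28.0 CPM under H1H2Mo. Among the 9 dynein genes themselves, dnah10 was nearest to the median, with a distance of 0.068 and 1 of the other genes nearer. dnah9 was farthest, with a distance of 1.16 and 1086 genes nearer, followed by dnah1 with 1.09. A profile over 4 libraries in 2 conditions is set mainly by the difference between them, so many genes are near.

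Markers of the other cells of the tissue were read in the same libraries, where 10.7% of all genes tested and 26.6% of those with a symbol were called lower. Of 5 markers of small secretory cells, 4 were called lower, and their summed level went from 1990 to 2227 CPM in CoMo to 290.6 to 538.6 CPM in H1H2Mo. Of 5 ionocyte markers, 1 was called lower, near that background, with sums of 211.9 to 275.3 CPM under CoMo and 95.7 to 161.5 CPM under H1H2Mo. Of 3 goblet cell markers, itln1 and itln2 were called lower. The sums overlapped, with 1457 to 1835 CPM under CoMo and 701.4 to 2457 CPM under H1H2Mo. This overlap came from otog, which was not called, with 874.0 and 1011.4 CPM under CoMo and 2268.5 and 638.9 CPM under H1H2Mo. Of 6 epidermal genes, 3 were called lower, with sums of 1168 to 1772 CPM and 384.9 to 455.8 CPM. The mesoderm and endoderm markers that could be looked up (4 of 10) summed to 2.92 to 4.99 CPM in CoMo and to 28.4 and 4.74 CPM in H1H2Mo replicates 1 and 2, and 1 of them, foxa4, was called higher, with 9.44 CPM in H1H2Mo replicate 1 and at most 0.614 CPM in the other libraries. The neural markers that could be looked up (2 of 7) summed to 83.8 and 23.5 CPM in CoMo replicates 1 and 2 and to 3.39 and 6.30 CPM in H1H2Mo, and both were called lower. No ionocyte, goblet cell or neural marker was called lower without CoMo replicate 1. None of these markers was at 0 in all libraries of a condition. The part of cell composition in the fall of the dynein genes was not tested.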

How the data were processed

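The 2 CoMo and 2 H1H2Mo libraries of the NF16 stage were analysed as counts per gene. Per the methods and the labels, the authors depleted ribosomal RNA, made directional libraries, aligned paired-end reads to X. tropicalis v9.1 with STAR 2.7.1a and counted them per gene in the same run. The deposited counts are raw and were given unstranded and by strand. The reverse-strand counts were used, which held 97.49% to 98.16% of the stranded read pairs. Reads mapping to several places (6.81% to 8.11% of read pairs) and ambiguous reads are outside the gene counts, so sequence common to related heavy chains counts for none of them. Read pairs outside genes (13.6% to 19.2%) stayed out of library sizes.

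A gene was tested if 75% of the libraries had at least 1 read, with edgeR 4.0.16 in R 4.3.3 (TMM, quasi-likelihood test, two-sided, Benjamini-Hochberg over all 19372 genes, threshold 0.05). The F statistic gave the standard errors, and log2 CPM values used a prior count of 2. DESeq2 1.42.0, other normalizations, filters, strands and depths, a replicate block and leaving out each library were alternatives. The names come from the study's supplementary gene lists, of which only identifiers, symbols and chromosomes were read. Beyond all 9 dynein genes, up to 4 genes per list with the highest mean CPM and the 5 nearest profiles could be named, and departures are marked. The genes and lists were chosen with earlier results of these data known. Deviations of same-numbered libraries were weakly opposed (correlation -0.21 over 12536 genes averaging at least 50 counts). With 2 libraries per condition this cannot tell whether the numbers mark pairs, and the main test used no block. At 195 or more read pairs for each of the 9 genes in each library, precision rests on the spread among replicates.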

Additional observations from a re-analysis of the deposited data

Results flagged for a closer look

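Read pairs on the forward strand, which the comparison did not use, were counted at the dynein genes and expressed as CPM of all stranded read pairs on genes. At 3 of the 9 genes both H1H2Mo libraries were above both CoMo libraries, as they were for 26.4% of the 15992 genes tested that had a forward-strand read pair, so the count is near that background. dnah1 had 0.46 and 0.6 CPM in CoMo and 1.99 and 1.43 in H1H2Mo. dnah14 had 0.403 and 0.641 in CoMo and 1.84 and 0.687 in H1H2Mo. dnah9 had 0.0576 and 0.103 in CoMo and 0.451 and 0.515 in H1H2Mo. These values rest on few read pairs, for dnah1 on 8 and 29 in CoMo and 53 and 25 in H1H2Mo. Of all stranded read pairs on genes, 1.84% and 1.97% in CoMo and 2.51% and 2.01% in H1H2Mo lay on the forward strand. At dnah1 the forward strand held 0.203% and 0.269% of the gene's stranded read pairs in CoMo and 2.23% and 1.11% in H1H2Mo, while at dnah6 it held no read pair in 3 of the 4 libraries. The forward-strand values were not tested.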

How the results depend on the processing

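Each of the 9 dynein genes stayed lower and was called with RLE and upper-quartile normalization, without a filter, with a mean of at least 50 counts, with unstranded counts, after thinning to equal depth, with DESeq2, and with the replicate block. Over these settings the log2 fold change stayed between -3.10 and -3.00 for dnah6 and between -1.25 and -1.14 for dnah1. With the replicate block it was -3.10 for dnah6 and -1.25 for dnah1, 3280 genes were called, and no dynein heavy or intermediate chain lost its call. With the pairs crossed, chosen after seeing the data, 4843 genes and all 9 chains were called, and 5 in place of 3 cytoplasmic dynein genes were called lower. Those were also 5 without a filter.

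Markers called lower were 2 MCC regulators and 2 ionocyte genes with the crossed pairs, 2 ionocyte genes without a filter, 5 epidermal genes with DESeq2 and 1 goblet cell gene at an adjusted p under 0.01. An adjusted p under 0.01 left 1543 genes, 1171 of them lower, and 7 of the 9 chains, 4 assembly factors and 1 cytoplasmic dynein gene. With each library left out in turn, 542 to 3978 genes were called, 499 to 2268 of them lower. The 9 chains kept 6 to 9 calls, 6 without either CoMo library and 9 without either H1H2Mo library. The log2 fold changes then ranged from -2.86 to -1.77 for dnai2, from -1.64 to -1.10 for dnah9, from -1.53 to -0.96 for dnah1 and from -2.02 to -1.87 for dnah5, whose adjusted p without CoMo replicate 2 was 0.0501. The numbers called lower ranged from 0 to 9 other axonemal chains, from 0 to 12 assembly factors, from 3 to 9 docking and link identifiers and from 0 to 4 cytoplasmic dynein genes. For the markers the ranges were 0 to 2 MCC regulators, 0 to 3 ionocyte, 3 to 5 small secretory cell, 0 to 2 goblet cell, 1 to 4 epidermal and 0 to 2 neural genes. Fewer genes were called without a CoMo library than without an H1H2Mo library. Without a CoMo library, the spread between replicates in the fit comes from the H1H2Mo libraries alone. Over genes, the log2 CPM difference between replicates had an SD of 0.82 in H1H2Mo and 0.59 in CoMo. The part of this spread in the lost calls was not tested.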
